A study of Mus musculus with 30 samples.

Results

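Chemokines are small secreted or membrane-tethered proteins that draw leukocytes along a gradient by binding G protein-coupled receptors on them. The 34 chemokine ligand genes described here were taken by symbol: every gene named Ccl or Cxcl with a number, together with Cx3cl1 and Xcl1, that had an array probe set assigned to that gene alone. They were 34 of the 17097 genes measured. Receptors and chemokines under other symbols were left out of the set. Where a gene had several such probe sets, which was the case for 11 of the 34, the brightest one on average over all arrays stood for it. The rule itself uses no measured difference between genotypes, but it was chosen with earlier results of these data known.

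The arrays came from mice lacking Clpp and from their wild-type littermates, both on a C57BL/6 background. Clpp encodes the proteolytic subunit of a protease of the mitochondrial matrix. Testis, liver, skeletal muscle, brain and heart were each measured in 3 Clpp knockout samples and 3 wild-type samples, 30 arrays in all. The labels used here give neither age nor sex, nor how the allele was made, nor whether the samples of a group were separate animals, so p-values measure the spread between these samples. Clpp itself reached at most 3.99 on any knockout array and at least 5.88 on any wild-type array, in log2 units.

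By convention the ligands fall into inducible and homeostatic kinds. Inducible ligands such as Cxcl10, Ccl2 and Ccl5 are made by many cell types after interferon, tumour necrosis factor or microbial stimuli and recruit monocytes, neutrophils or activated T cells. Homeostatic ligands such as Cxcl12, Cxcl13 and Ccl21 are made steadily by stromal cells and place lymphocytes and progenitors within a tissue. Several inducible ligands, Cxcl9 and Cxcl10 above all, are classic targets of interferon signalling.

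Expression is given as the authors' log2 values, on which a difference of 1 is a 2-fold difference. Array medians lay between 3.24 and 3.38, and a level under 4 is treated here as near background, since no detection call was used. Levels of different probe sets are not set against each other. Changes are knockout minus wild type with the standard error (SE) from a limma fit of all 17097 genes over all 30 arrays, 3 arrays per group. A member is said to be called, to rise or to fall where its limma p, adjusted over all genes by Benjamini-Hochberg, was below 0.05.

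Some arrays stood apart from their group in genes that belong to other tissues or regions, picked after their values were seen. Heart knockout replicates 2 and 3 had 12.6 and 12.8 for the atrial light chain Myl7, against 3.59 on heart knockout replicate 1 and 2.95 to 7.42 on the wild-type hearts. The same pair had 8.03 and 9.28 for the adipocyte gene Adipoq, against 2.57 on heart knockout replicate 1 and 2.71 to 3.29 on the wild-type hearts. Testis wild-type replicate 3 had 11.7 for the epididymal gene Lcn5, muscle wild-type replicate 1 had 8.11 for the sperm gene Prm1, and brain wild-type replicate 3 had 11.7 for growth hormone, Gh. Liver wild-type replicate 3 had 11.6 for the acute-phase gene Saa2, against 5.94 to 7.21 on the knockout livers and 7.53 and 8.63 on the other wild-type livers. Values without these arrays are given beside the results they move.

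Of the 34 genes, 12 stayed under 4 in every group, with array values between 2.16 and 3.92. These were Ccl1, Ccl17, Ccl20, Ccl22, Ccl3, Ccl4, Ccl7, Cxcl15, Cxcl17, Cxcl2, Cxcl5 and Xcl1. Another 9 peaked between 4 and 5, namely Ccl12, Ccl19, Ccl2, Ccl24, Ccl25, Ccl28, Cxcl10, Cxcl11 and Cxcl16. The remaining 13 reached 5 or more in at least 1 of the 10 groups.

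Changes in the chemokine ligands were most numerous in testis and heart. In testis 4 members rose, Ccl8, Cxcl12, Cxcl16 and Ccl12, where 32.8% of all genes rose. Another 7 fell there, Ccl27a, Ccl5, Ccl17, Ccl1, Ccl28, Ccl22 and Xcl1, where 23.4% of all genes fell. Both member shares, 11.8% and 20.6%, lay below those of all genes. In heart 4 members rose, Cxcl13, Ccl5, Cxcl10 and Ccl12, which is 11.8% of the members against 1.11% of all genes. Cxcl14 alone fell in heart, where 1.07% of all genes fell. In liver Ccl5 rose, where 0.912% of all genes rose, and no member fell by limma, where 1.5% did and where none had an unadjusted p below 0.05 in that direction.

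No member was called by limma in muscle, where 0.778% of all genes rose and 0.76% fell, or in brain, where 0.234% rose and 0.181% fell. At an unadjusted limma p below 0.05, muscle had 4 members, Cxcl9 higher and Ccl11, Ccl25 and Cxcl14 lower, against 12.8% of all genes. Brain had 6, with Ccl12, Ccl4, Ccl5, Ccl7 and Cxcl5 higher and Cx3cl1 lower, against 7.91% of all genes. The median change over the 34 members was 0.07 in liver, 0.09 in muscle, 0.08 in brain and 0.08 in heart, while the medians of all genes lay between -0.01 and 0.02 in these tissues. In testis the median was -0.05 for the members and 0.02 for all genes. Without heart knockout replicate 3, Cxcl13 was the 1 member that rose in heart. Without replicates 2 and 3 together, all 5 heart calls were lost, with 1 knockout array left that is assumed to vary like the other groups, and 2 members, Ccl5 and Cxcl13, rose in liver.

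**Figure D1:**
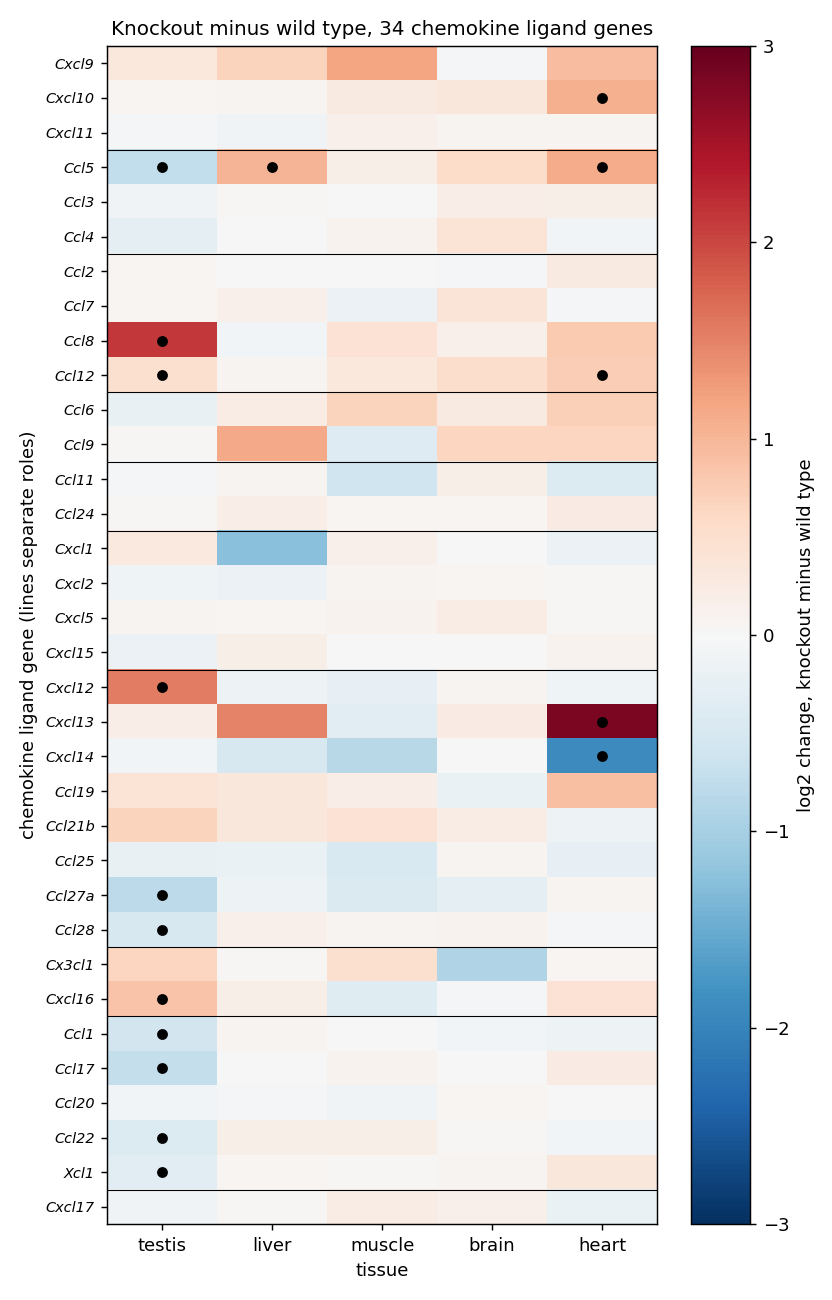
Knockout minus wild type in log2 units for the 34 chemokine ligand genes (rows, grouped by role) in 5 tissues (columns), with a black dot where limma's adjusted p was below 0.05. The deepest colours are Cxcl13 in heart (2.82), Ccl8 in testis (2.13) and Cxcl14 in heart (-1.91), and muscle and brain hold no dot.

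Levels in wild-type tissues showed where the ligands are made in the absence of the mutation. Liver had the highest wild-type level of 4 of the 9 members that reached 6 somewhere: Cxcl12 at 9.67 ± 0.17, Ccl9 at 8.31 ± 1.08, Cxcl9 at 6.54 ± 0.62 and Cxcl1 at 6.42 ± 2.43 (SD, n = 3 arrays each). Each of these 4 lay above every wild-type array of the other tissues in liver. Cxcl1 reached 6 through the array with high Saa2, which read 9.16, while the other wild-type livers read 5.59 and 4.52. Brain was highest for Cx3cl1, at 7.33 ± 1.40, well clear of heart at 4.07 ± 0.15. Heart was highest for Ccl21b, at 8.07 ± 0.40, clear of muscle at 5.92 ± 1.14.

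Other leading tissues were not separated from the next one. Cxcl14 averaged 6.73 ± 0.48 in brain, 6.27 ± 0.20 in heart and 6.09 ± 0.40 in muscle, with overlapping arrays. Ccl6 averaged 6.36 ± 0.72 in heart and 5.13 ± 0.97 in muscle, also overlapping. Ccl27a averaged 8.33 in testis and 7.51 ± 0.70 in brain, where the array that stands apart, replicate 3, read 8.32. Across the wild-type tissues, 26 of the 34 members differed by limma's F test, a smaller share (76.5%) than that of all genes (87.9%).

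**Figure D2:**
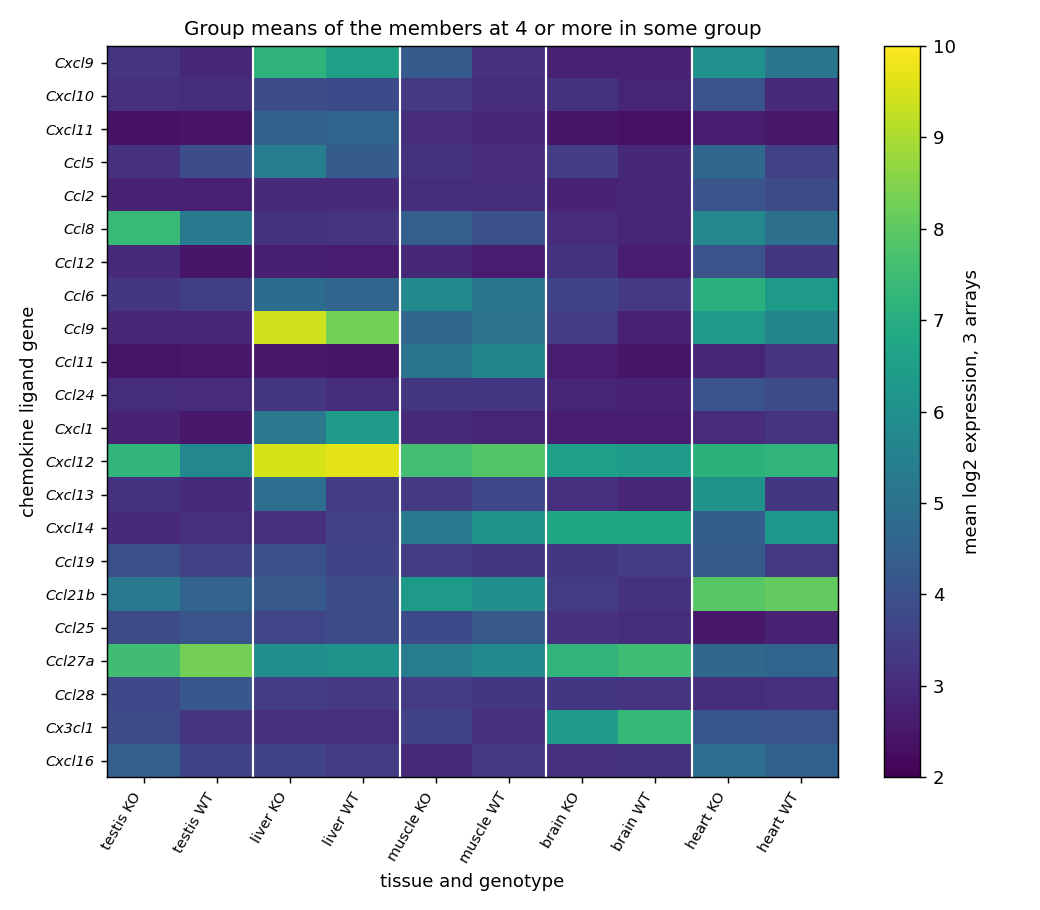
Mean log2 expression over 3 arrays for the 22 chemokine ligand genes that reached 4 in some group (rows), in each tissue with the knockout column left of the wild-type column. Cxcl12 and Ccl9 are brightest in liver, Ccl21b in heart, Ccl27a in testis and Cx3cl1 in brain.

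The ligands of Cxcr3, which attract activated T cells and natural killer cells, are Cxcl9, Cxcl10 and Cxcl11. Cxcl10 rose in heart, with 3.60, 3.97 and 4.57 on the knockout arrays and 3.16, 3.17 and 2.65 on the wild-type arrays. Every knockout heart lay above every wild-type heart, although replicates 1 and 2 of the knockout were still under 4, as were all wild-type hearts. The change was 1.06 ± 0.22 (adjusted p = 0.00703 by limma), or 2.08-fold. It was 0.79 without heart knockout replicate 3 (adjusted p = 0.0742), 0.88 without heart wild-type replicate 3 (adjusted p = 0.063) and 0.61 without both knockout arrays that carry atrial transcripts (adjusted p = 0.492), all by limma.

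Cxcl9 lay higher in knockout hearts on every array, at 6.74, 5.60 and 5.80 against 5.15, 5.14 and 5.10 in wild-type hearts, but the difference of 0.92 ± 0.34 was not called (adjusted p = 0.182 by limma). The highest of these values was on heart knockout replicate 1, the knockout array without atrial transcripts, and with that array alone the difference was 1.61 (adjusted p = 0.122 by limma). In muscle Cxcl9 had 4.88, 3.22 and 4.89 on the knockout arrays and 2.65, 3.42 and 3.39 on the wild-type arrays. Knockout replicate 2 lay within the wild-type range, and the difference of 1.18 ± 0.34 was not called (adjusted p = 0.0808 by limma). Without that array it was 1.74 (adjusted p = 0.00167 by limma), and without muscle wild-type replicate 1, the array with sperm transcripts, it was 0.93 (adjusted p = 0.324 by limma). In liver, its tissue of highest expression, Cxcl9 had 7.13, 7.30 and 7.22 in knockout and 7.25, 6.12 and 6.24 in wild type, which overlap.

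Cxcl11 was seen above background in liver alone, at 5.44, 3.90 and 4.15 in knockout and 4.18, 5.05 and 4.59 in wild type. Its groups overlapped there. In the GRCm38.p6 assembly, which is of the C57BL/6J strain, the Cxcl11 locus is annotated as a transcribed pseudogene.

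The promoters of Cxcl9 and Cxcl10, both textbook interferon targets and neighbours on chromosome 5, are shown here. Cxcl10 was chosen for printing after its values and matches were seen. Windows run from 250 bases before to 50 bases after the annotated start, read 5′ to 3′ on the gene's strand, from RefSeq on GRCm38.p6. They lie at chr5:92328030-92328329 for Cxcl9 and chr5:92348840-92349139 for Cxcl10, both on the minus strand. Capitals mark matches to 4 letter patterns searched on both strands, with no overlap between marked matches.
Cxcl9: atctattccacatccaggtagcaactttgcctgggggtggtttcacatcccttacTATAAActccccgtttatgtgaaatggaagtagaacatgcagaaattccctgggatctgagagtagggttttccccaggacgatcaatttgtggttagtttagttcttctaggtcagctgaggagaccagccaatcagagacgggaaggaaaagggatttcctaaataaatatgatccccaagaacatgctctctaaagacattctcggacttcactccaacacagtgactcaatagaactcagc
Cxcl10: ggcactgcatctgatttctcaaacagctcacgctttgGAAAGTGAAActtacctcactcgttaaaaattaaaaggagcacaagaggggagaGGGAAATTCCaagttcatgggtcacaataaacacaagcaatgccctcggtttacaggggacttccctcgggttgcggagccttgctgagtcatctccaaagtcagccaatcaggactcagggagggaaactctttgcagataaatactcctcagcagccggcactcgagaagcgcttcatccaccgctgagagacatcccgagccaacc
The patterns were the interferon-stimulated response element core (GAAA, any 2 bases, GAAA), the NF-kB pattern (GGGA, any 2 bases, TTCC), the gamma-activated sequence core (TTCNNNGAA) and the TATA box (TATAAA). Counted from 1 at the 5′ end of the window, Cxcl10 had the response element core at 38 to 47 and the NF-kB pattern at 92 to 101. Cxcl9 matched TATAAA alone, at 56 to 61. Over all 32851 windows in the table, 3.44% hold the response element core, 1.47% the NF-kB pattern, 8.3% TTCNNNGAA and 13.6% TATAAA.

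Windows were found for 24 of the 34 members, 27 windows in all. The response element core was matched in 3 of the 27, those of Ccl19, Cxcl10 and Cxcl14. The NF-kB pattern was matched in 4, those of Ccl1, Cxcl1, Cxcl10 and Cxcl2. TTCNNNGAA was matched in 2, those of Ccl17 and Cxcl14, and TATAAA in 8, those of Ccl12, Ccl25, Ccl8, Ccl9, Cx3cl1, Cxcl13, Cxcl15 and Cxcl9. Cxcl10 was thus the one member window with both the response element core and the NF-kB pattern.

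Ccl5, Ccl3 and Ccl4 attract T cells, natural killer cells and monocytes. Ccl5 was the one member called in more than 1 tissue outside testis. In heart it had 4.49, 4.45 and 5.07 on the knockout arrays and 3.61, 3.36 and 3.69 on the wild-type arrays. The groups did not overlap, and knockout replicate 1, which lacks the atrial transcripts, lay within the range of the other knockout arrays. The change was 1.12 ± 0.24 (adjusted p = 0.0112 by limma), or 2.17-fold. It was 0.92 without knockout replicate 3 (adjusted p = 0.0928), 1.02 without wild-type replicate 2 (adjusted p = 0.0714) and 0.94 with knockout replicate 1 alone (adjusted p = 0.297), all by limma.

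In liver Ccl5 had 5.85, 4.81 and 5.40 in knockout and 4.57, 4.04 and 4.40 in wild type. Again the groups did not overlap, and the gene rose by 1.01 ± 0.24 (adjusted p = 0.0218 by limma), or 2.02-fold. The limma call was lost without liver knockout replicate 1 (0.76, adjusted p = 0.17), without liver knockout replicate 3 (0.99, adjusted p = 0.0591) and without liver wild-type replicate 2 (0.86, adjusted p = 0.113). Liver knockout replicate 1, the array with the highest Ccl5, also had the largest excess of 3′ over 5′ signal among the livers, 1.66 for Gapdh against 0.773 to 1.03 on the other 5, and the part of RNA quality in the Ccl5 values was not tested. In brain Ccl5 had 3.49, 3.42 and 3.40 in knockout and 2.91, 2.92 and 2.86 in wild type, a difference of 0.54 ± 0.24 near background that was not called (adjusted p = 0.589 by limma).

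Testis ran the other way for Ccl5, which fell by 0.74 ± 0.24 (adjusted p = 0.012 by limma) at means of 3.16 in knockout and 3.89 in wild type. The highest of those arrays was testis wild-type replicate 3, at 4.47, and without it the change was -0.45 (adjusted p = 0.131 by limma). Without testis knockout replicate 3 it was -0.51 (adjusted p = 0.105 by limma). The knockout effect on Ccl5 differed between the 5 tissues (adjusted p = 3.24e-04 by limma's F test). Ccl3 and Ccl4 stayed under 4 in all groups.

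The gene list for T cells and natural killer cells, common sources of Ccl5, had 10 of 10 measured genes under 4 on all heart arrays and on all liver arrays. Its mean over genes ranged from 3.13 to 3.23 in knockout hearts and from 2.97 to 3.08 in wild-type hearts. In these whole tissues, a change in the number of cells that make a ligand cannot be told apart from a change in its RNA per cell.

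Ccl2, Ccl7, Ccl8 and Ccl12 attract monocytes, the first pair and Ccl12 through Ccr2, and mouse Ccl8 through Ccr8. Ccl8 had the largest change of any member in testis, with 7.95, 7.46 and 6.74 on the knockout arrays and 4.55, 5.37 and 5.84 on the wild-type arrays. The groups were separate, and the change was 2.13 ± 0.42 (adjusted p = 1.04e-04 by limma), or 4.37-fold. Without testis wild-type replicate 3, the array with epididymal transcripts, it was 2.42 (adjusted p = 7.17e-05 by limma). In heart Ccl8 had 4.70, 6.15 and 6.41 in knockout and 4.92, 4.27 and 5.68 in wild type. The high knockout values there were on the arrays with atrial transcripts, and the difference of 0.80 ± 0.42 was not called (adjusted p = 0.43 by limma). It was -0.26 with knockout replicate 1 alone.

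The promoter of Ccl8 is shown as that of the largest change in testis, at chr11:82114935-82115234 on the plus strand, with its TATAAA at 219 to 224 in capitals.
Ccl8: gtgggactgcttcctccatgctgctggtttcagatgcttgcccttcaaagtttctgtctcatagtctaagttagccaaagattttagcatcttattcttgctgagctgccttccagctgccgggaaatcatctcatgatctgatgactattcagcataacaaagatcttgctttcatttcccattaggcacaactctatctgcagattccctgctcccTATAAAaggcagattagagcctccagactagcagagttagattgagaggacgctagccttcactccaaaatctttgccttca

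Ccl12 rose in heart, with 3.97, 3.75 and 4.43 on the knockout arrays and 3.25, 3.14 and 3.55 on the wild-type arrays. The groups did not overlap, though all but 1 of the 6 values lay under 4. The change was 0.74 ± 0.17 (adjusted p = 0.0185 by limma), or 1.67-fold. It was 0.55 without knockout replicate 3 (adjusted p = 0.147), 0.71 without wild-type replicate 1 (adjusted p = 0.0755), 0.66 without wild-type replicate 2 (adjusted p = 0.109) and 0.66 without both arrays that carry atrial transcripts (adjusted p = 0.247), all by limma.

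In brain Ccl12 had 3.15, 3.28 and 3.04 in knockout and 2.53, 2.82 and 2.56 in wild type, separate but near background and not called (0.52 ± 0.17, adjusted p = 0.336 by limma). In testis it was called at means of 2.96 in knockout and 2.47 in wild type, and the call was lost without testis knockout replicate 1 (0.30, adjusted p = 0.173 by limma) and without testis wild-type replicate 1 (0.42, adjusted p = 0.078 by limma). Ccl2 peaked in heart, at 3.90, 3.75 and 4.72 in knockout and 3.59, 3.51 and 4.46 in wild type, which overlap. Ccl7 stayed under 4 throughout.

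Ccl6 and Ccl9 are rodent ligands of Ccr1 that are made largely by myeloid cells. Ccl9 in liver had 9.32, 9.55 and 9.43 in knockout and 7.14, 8.52 and 9.27 in wild type. All knockout livers lay above all wild-type livers, but the wild-type spread was wide and the difference of 1.13 ± 0.41 was not called (adjusted p = 0.172 by limma). The highest wild-type value was on replicate 3, the liver with high Saa2. Without it the difference was 1.61 (adjusted p = 0.0324 by limma), and without wild-type replicate 1, the lowest, it was 0.54 (adjusted p = 0.652 by limma). The second probe set of Ccl9 gave a difference of 0.83 in liver.

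Ccl6 in heart had 6.26, 7.01 and 7.96 in knockout and 6.66, 5.54 and 6.88 in wild type, with overlap and no call (0.72 ± 0.39, adjusted p = 0.445 by limma). The difference was -0.10 with knockout replicate 1 alone. The eotaxins Ccl11 and Ccl24 act on eosinophils through Ccr3. Ccl11 reached 5 in muscle alone, at 4.52, 5.31 and 5.37 in knockout and 5.82, 5.98 and 5.18 in wild type. Those groups overlapped through wild-type replicate 3, and the difference of -0.59 ± 0.21 was not called (adjusted p = 0.2 by limma). Ccl24 peaked at 4.08 in knockout hearts, against 3.82 in wild-type hearts.

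The neutrophil attractants Cxcl1, Cxcl2 and Cxcl5 act through Cxcr2, and Cxcl15 is best known from lung epithelium. Cxcl1 was above background in liver, at 4.70, 4.75 and 6.09 in knockout and 5.59, 4.52 and 9.16 in wild type. The value of 9.16 was on the wild-type liver with high Saa2, and the difference of -1.24 ± 0.61 was not called (adjusted p = 0.385 by limma). It was 0.12 without that array, and -2.20 without liver wild-type replicate 2 (adjusted p = 0.0279 by limma). Cxcl2, Cxcl5 and Cxcl15 stayed under 4 in all groups. The neutrophil list had 8 of its 9 measured genes under 4 on all heart arrays and 7 of 9 on all liver arrays.

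The homeostatic ligands include Cxcl13 and Cxcl14, which were both called in heart. Cxcl13 attracts B cells and some helper T cells through Cxcr5 and organises lymphoid follicles. Its heart values were 3.91, 6.87 and 7.44 on the knockout arrays and 3.32, 3.38 and 3.06 on the wild-type arrays. The groups did not overlap, but knockout replicate 1 was near background while replicates 2 and 3 were high. The change was 2.82 ± 0.50 (adjusted p = 0.00143 by limma), or 7.08-fold, and the second probe set of the gene gave 3.15.

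The pair of high Cxcl13 arrays was the pair with high Myl7 and Adipoq. With heart knockout replicate 1 alone against the wild-type hearts, the change was 0.66 (adjusted p = 0.584 by limma). Fitted on the 6 heart arrays alone, it was 2.82 with an adjusted p of 0.195 by limma. The mean of the adipocyte list was 4.93, 6.50 and 6.93 on knockout replicates 1 to 3 and 5.10 to 5.20 in wild-type hearts, and that of the fibroblast list was 6.39, 7.21 and 7.27 against 6.49 to 6.83. The mean of the B and plasma cell list was 2.95 to 3.57 in knockout hearts, highest on replicate 3, and 2.76 to 2.86 in wild-type hearts, and its member Cd79b rose by 0.69 ± 0.17 (adjusted p = 0.0258 by limma). The part of these other cells in the Cxcl13 values was not tested.

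**Figure D3:**
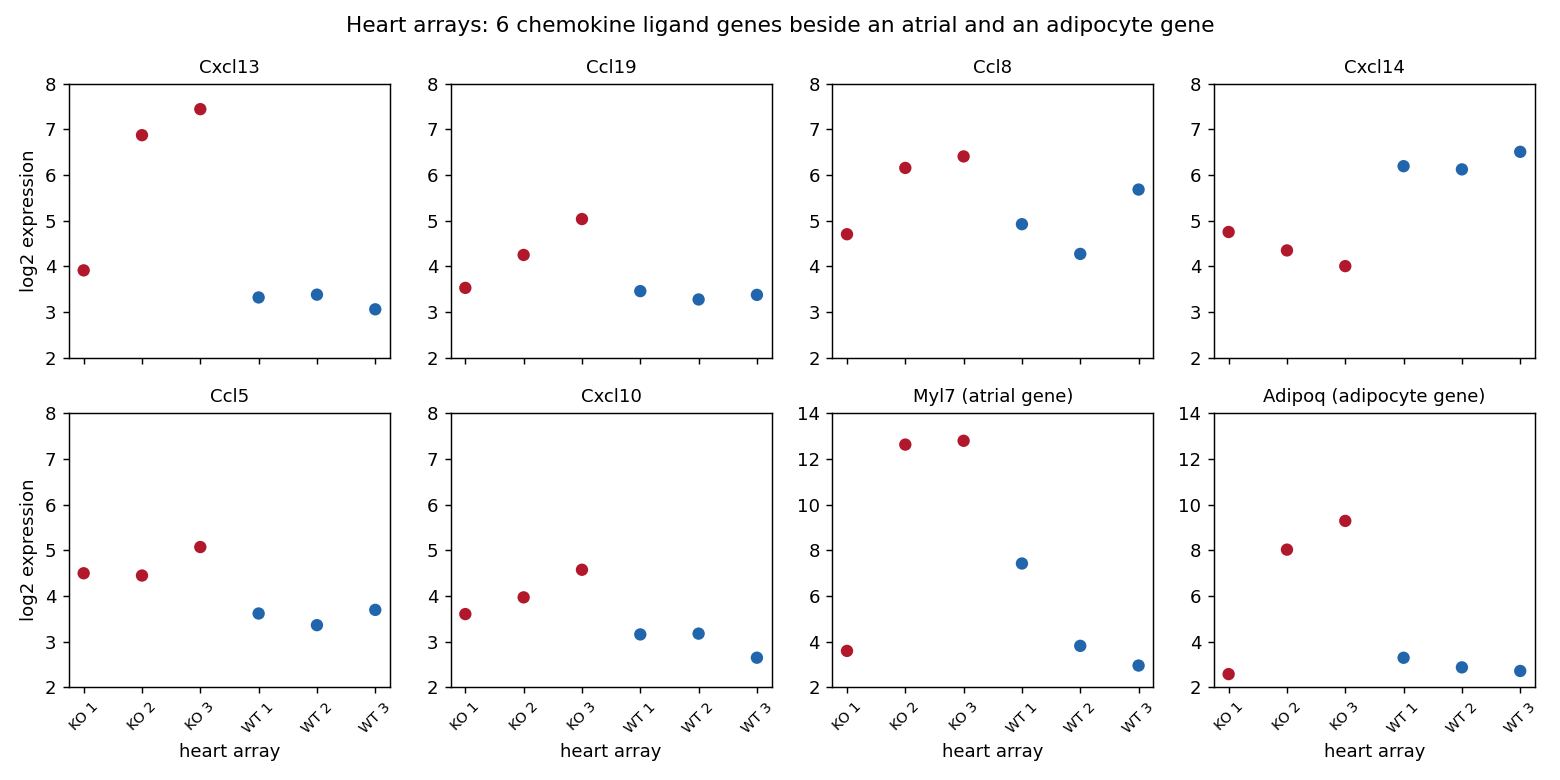
Log2 expression on each heart array, 3 knockout (red, left) and 3 wild-type (blue, right), for 6 chemokine ligand genes, the atrial gene Myl7 and the adipocyte gene Adipoq, the last pair on an axis with a wider range. Cxcl13, Ccl19 and Ccl8 are highest on knockout replicates 2 and 3, as are Myl7 and Adipoq, while Ccl5 is raised and Cxcl14 lowered on all 3 knockout arrays.

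Cxcl13 also lay higher in knockout livers, at 4.65, 5.46 and 4.56 against 3.46, 3.30 and 3.47 in wild-type livers. Every knockout value was above 4 and every wild-type value below it. The difference of 1.48 ± 0.50 was not called (adjusted p = 0.133 by limma). The spread that enters this test is pooled over all groups, and with heart knockout replicate 1 left out, the same liver difference had an adjusted p of 3.96e-04 by limma. With replicates 2 and 3 left out instead it had 4.06e-04 by limma. The liver difference of Cxcl13 was called in 3 of 40 settings, each of which left out heart arrays. Fitting the liver arrays alone did not give a call. The second probe set gave 0.59 in liver. The B and plasma cell list had 5 of 7 measured genes under 4 on all liver arrays.

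Cxcl14, a ligand made steadily by epithelia, brain and muscle whose receptor is not settled, fell in heart. It had 4.75, 4.35 and 4.0 on the knockout arrays and 6.19, 6.12 and 6.51 on the wild-type arrays. All 3 knockout hearts lay more than 1 log2 unit below all wild-type hearts, replicate 1 included. The change was -1.91 ± 0.32 (adjusted p = 8.47e-04 by limma), a 3.75-fold lower level. With knockout replicate 1 alone it was -1.52 (adjusted p = 0.151 by limma). It kept its call when any single array was left out. The second probe set, which was dimmer, gave -0.86.

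In muscle Cxcl14 had 5.24, 5.51 and 5.04 in knockout and 5.64, 6.23 and 6.39 in wild type, separate but not called (-0.82 ± 0.32, adjusted p = 0.244 by limma). The second probe set gave -0.22 in muscle. The mean of the adipocyte list ranged from 5.04 to 7.91 in knockout muscle and from 7.03 to 8.20 in wild-type muscle, where 1 of its 4 measured genes, Lep, fell, and its part in the Cxcl14 values was not tested. In brain, where Cxcl14 was highest in wild type, the difference was -0.02 ± 0.32, with 6.87, 6.88 and 6.39 in knockout and 6.59, 6.34 and 7.27 in wild type. Without brain wild-type replicate 3, the array that stands apart, the difference was 0.25. The second probe set gave -0.26 in brain over all arrays.

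The promoters of Cxcl13 and Cxcl14 are shown as those of the largest rise and the largest fall among the members over all heart arrays. Without the arrays with atrial transcripts the rise of Cxcl13 was 0.66, below Cxcl9 and Ccl5 and level with Ccl12. The Cxcl13 window lies at chr5:95956689-95956988 on the plus strand, with TATAAA at 205 to 210. The Cxcl14 window lies at chr13:56296502-56296801 on the minus strand, with TTCNNNGAA at 60 to 68 and the interferon-stimulated response element core at 79 to 88. Cxcl14 and Cxcl10 were chosen for printing after their values and matches were seen.
Cxcl13: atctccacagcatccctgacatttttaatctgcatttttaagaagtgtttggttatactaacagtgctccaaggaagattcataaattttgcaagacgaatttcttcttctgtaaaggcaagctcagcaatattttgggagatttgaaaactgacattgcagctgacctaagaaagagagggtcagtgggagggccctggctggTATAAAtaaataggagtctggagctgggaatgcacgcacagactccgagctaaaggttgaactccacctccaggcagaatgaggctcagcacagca
Cxcl14: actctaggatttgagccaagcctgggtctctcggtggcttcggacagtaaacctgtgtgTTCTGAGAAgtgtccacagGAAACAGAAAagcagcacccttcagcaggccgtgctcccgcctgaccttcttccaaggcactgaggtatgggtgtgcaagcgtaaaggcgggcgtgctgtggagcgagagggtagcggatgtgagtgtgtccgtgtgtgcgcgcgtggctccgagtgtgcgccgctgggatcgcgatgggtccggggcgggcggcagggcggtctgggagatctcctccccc
That core was matched in the windows of Cxcl14, which fell in heart, Cxcl10, which rose there, and Ccl19, which was not called there. The part of the core in these changes was not tested.

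Cxcl12 binds Cxcr4, holds blood progenitors in their niche and is scavenged by Ackr3. In testis it rose, with 7.42, 7.29 and 7.10 in knockout and 5.38, 5.62 and 6.23 in wild type. The groups were separate, and the change was 1.53 ± 0.23 (adjusted p = 2.04e-06 by limma), or 2.89-fold. Without testis wild-type replicate 3 it was 1.77 (adjusted p = 4.1e-07 by limma). In liver, where it was highest, it had 9.31, 9.48 and 9.78 in knockout and 9.64, 9.51 and 9.86 in wild type, with overlap. Its second bright probe set gave 0.95 in testis, 0.57 in muscle and -0.48 in heart, where the first gave 1.53, -0.25 and -0.13. In liver the second gave 0.16 and the first -0.15, and in brain -0.03 and 0.09. This pair thus disagreed in sign in muscle, liver and brain. A dim probe set of Cxcl12 gave -0.20 in testis.

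Ccl19 and Ccl21 guide dendritic cells and naive T cells through Ccr7. Ccl19 in heart had 3.53, 4.25 and 5.03 in knockout and 3.46, 3.27 and 3.37 in wild type. Its high values were again on the arrays with atrial transcripts, and the difference of 0.90 ± 0.25 was not called (adjusted p = 0.0585 by limma). It was 0.16 with knockout replicate 1 alone and 1.27 without that array (adjusted p = 9.45e-04 by limma). Ccl21b in heart had 7.98, 8.12 and 7.63 in knockout and 8.30, 8.31 and 7.60 in wild type, with overlap. Ccl21b has near-identical copies in the mouse genome, so its signal may be shared among them.

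Ccl27a and Ccl28 act through Ccr10 on skin and mucosal lymphocytes. Ccl27a fell in testis, with 7.40, 7.52 and 7.70 in knockout and 8.40, 8.32 and 8.27 in wild type. The groups were separate, and the change was -0.79 ± 0.26 (adjusted p = 0.0121 by limma), a 1.73-fold lower level. Without testis wild-type replicate 3 it was -0.82 (adjusted p = 0.0222 by limma). A pair of dimmer probe sets of Ccl27a gave -2.00 and -2.13, and copies of this gene may also share signal. Ccl28 was called lower in testis at means of 3.71 in knockout and 4.18 in wild type, with overlapping arrays, and kept its call in 30 of 40 alternative settings. Without testis knockout replicate 2 its change was -0.17 (adjusted p = 0.475 by limma). Another probe set of Ccl28 gave -1.33 in testis, at 3.06 in knockout and 4.39 in wild type. Its dimmest probe set gave -0.37 there. Ccl25, a thymus and gut ligand, stayed under 5, and its lower values in muscle and testis were not called. Its second probe set gave -0.62 in testis and -0.17 in muscle. With the mean of all its probe sets the testis change was -0.43 and called (adjusted p = 0.0171 by limma).

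Cx3cl1 and Cxcl16 are made as transmembrane proteins that can be shed. Cx3cl1, or fractalkine, links neurons to microglia that carry Cx3cr1. In brain it had 6.57, 6.46 and 6.26 in knockout and 6.54, 6.50 and 8.95 in wild type. The value of 8.95 was on wild-type replicate 3, the array that stands apart, and the others lay within a narrow range. The difference was -0.90 ± 0.38 with that array (adjusted p = 0.553 by limma) and -0.09 without it.

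The Cx3cl1 promoter is shown as that of the largest difference in brain over all arrays. Without brain wild-type replicate 3 that difference was -0.09, and the difference of Ccl9 was 0.61. The Cx3cl1 window lies at chr8:94771930-94772229 on the plus strand, with TATAAA in capitals at 245 to 250.
Cx3cl1: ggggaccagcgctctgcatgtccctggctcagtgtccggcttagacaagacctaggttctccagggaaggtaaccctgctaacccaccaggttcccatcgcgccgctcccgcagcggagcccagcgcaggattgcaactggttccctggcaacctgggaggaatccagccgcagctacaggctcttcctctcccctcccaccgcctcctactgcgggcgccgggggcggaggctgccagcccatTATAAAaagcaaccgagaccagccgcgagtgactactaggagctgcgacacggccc

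Cxcl16, which binds Cxcr6, rose in testis to 4.98, 4.44 and 3.93 in knockout, against 3.84, 3.44 and 3.52 in wild type. The groups were separate by a small margin, and the change was 0.85 ± 0.19 (adjusted p = 3.56e-04 by limma). In heart it had 4.67, 4.94 and 5.11 in knockout and 4.46, 4.46 and 4.54 in wild type, separate but not called (0.42 ± 0.19, adjusted p = 0.303 by limma; 0.18 with knockout replicate 1 alone), and its second probe set gave -0.25 there.

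The other T cell attractants are Ccl1, a ligand of Ccr8, Ccl17 and Ccl22, ligands of Ccr4, Ccl20, a ligand of Ccr6, and Xcl1, which binds Xcr1 on dendritic cells. All 5 stayed under 4 in every group. Ccl1, Ccl17, Ccl22 and Xcl1 were called lower in testis, with changes between -0.73 for Ccl17 and -0.32 for Xcl1. Without testis wild-type replicate 3, the array with epididymal transcripts, the change of Xcl1 was -0.23 and no longer called (adjusted p = 0.138 by limma). With Ccl5, they make 5 of the 7 lower calls in testis in which both group means lay under 4. Cxcl17, a mucosal chemokine, was also under 4 throughout.

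**Figure D4:**
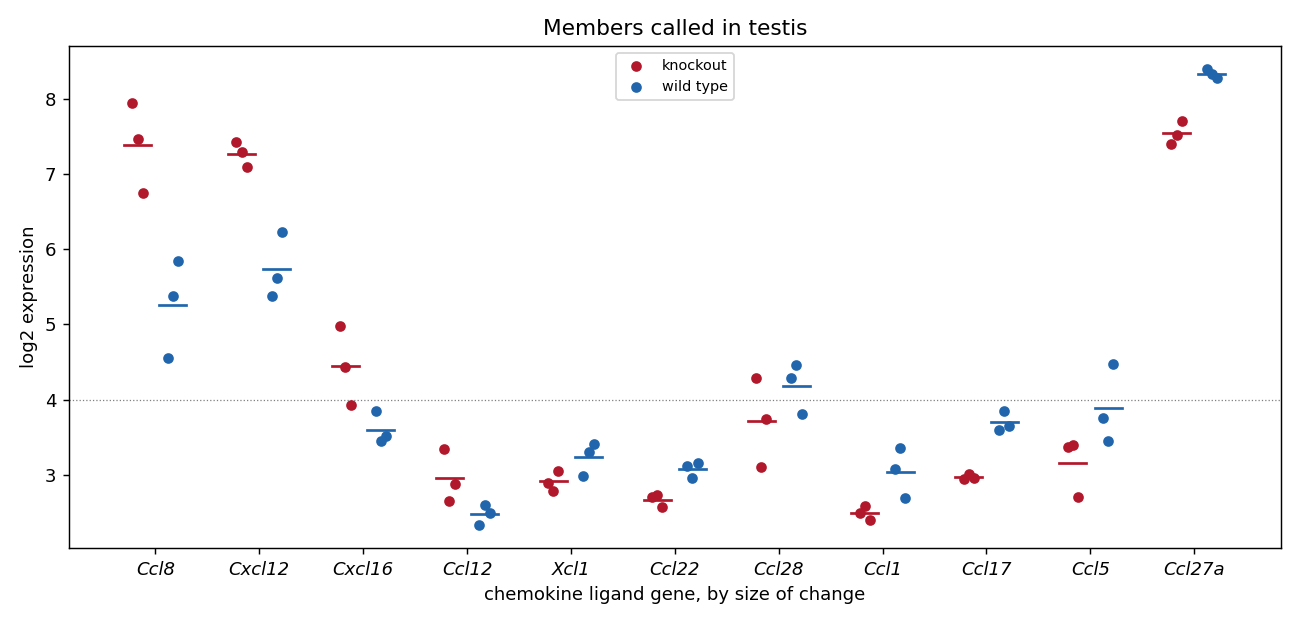
Log2 expression of the 11 chemokine ligand genes called in testis, with 3 knockout arrays (red, left) and 3 wild-type arrays (blue, right) per gene, bars at the means and a dotted line at 4. Ccl8, Cxcl12 and Ccl27a lie above the line on every array, while Xcl1, Ccl22, Ccl1 and Ccl17 lie below it on every array.

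Marker genes of several testis cell types differed between genotypes. All 12 measured spermatid and sperm genes fell, where 23.4% of all genes did. All 10 Sertoli cell genes and all 6 Leydig cell genes rose, where 32.8% of all genes did. Of 16 macrophage genes, 13 rose, with list means of 5.75 to 6.05 in knockout and 4.85 to 5.06 in wild type, and Aif1 fell. The platelet and macrophage chemokine Pf4 rose by 2.30 ± 0.27. RNA quality moved as well: the signal of Gapdh probes at the 3′ end exceeded that at the 5′ end by 0.506 to 0.574 in knockout and by 0.862 to 1.17 in wild type. The part of these differences in the testis changes of Ccl8, Cxcl12 and the other members was not tested.

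Averaged over liver, muscle, brain and heart, 5 members rose, 14.7% of the 34 against 1.47% of all genes. Cxcl13 rose by 1.05 ± 0.25 (adjusted p = 0.0162), Ccl5 by 0.71 ± 0.12 (adjusted p = 0.00118) and Cxcl9 by 0.68 ± 0.17 (adjusted p = 0.0211), all by limma. Cxcl10 rose by 0.44 ± 0.11 (adjusted p = 0.0211) and Ccl12 by 0.42 ± 0.09 (adjusted p = 0.00698). Cxcl14 fell by 0.80 ± 0.16 (adjusted p = 0.00468 by limma), where 2.55% of all genes fell. Cxcl9 was called in this mean and in no single tissue. It is not stated whether tissues were taken from shared animals, and the fit treats the arrays as independent. The change lay above 0 in all 4 tissues for 7 members, Ccl12, Ccl24, Ccl5, Ccl6, Cxcl10, Cxcl5 and Xcl1, or 20.6% against 9.25% of all genes. Without the hearts with atrial transcripts, the heart change was -0.10 for Ccl6 and -0.17 for Ccl24, so that these 2 no longer held, and that of Cxcl5 was 0.003. Without muscle wild-type replicate 1, the array with sperm transcripts, the muscle change of Xcl1 was -0.03, so that it did not hold either.

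Ccl5, Ccl12 and Cxcl14 kept these calls in all settings in which they were refitted, 39 for Ccl5 and Ccl12 and 40 for Cxcl14. Without the pair of hearts with atrial transcripts, Cxcl13 averaged 0.51 (adjusted p = 0.0303), Cxcl9 0.86 (adjusted p = 0.00958) and Cxcl10 0.33 (adjusted p = 0.0937, no call), all by limma. The Cxcl13 call was lost when testis wild-type replicate 3, muscle wild-type replicate 1 and brain wild-type replicate 3 were left out as well (0.43, adjusted p = 0.0535 by limma), and with the mean of all its probe sets (0.97, adjusted p = 0.0503 by limma). Over all 5 tissues, 7 members rose, where 17.1% of all genes rose: Cxcl13, Ccl8, Cxcl9, Ccl12, Ccl5, Cxcl10 and Ccl19. Cxcl14 and Ccl27a fell in that mean, where 16.5% of all genes fell, and Ccl27a kept its call in 20 of 40 settings. Without the hearts with atrial transcripts, this mean was 0.18 for Ccl19 (adjusted p = 0.152), 0.47 for Ccl8 (adjusted p = 0.0592) and -0.25 for Ccl27a (adjusted p = 0.149), none of them called by limma.

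**Figure D5:**
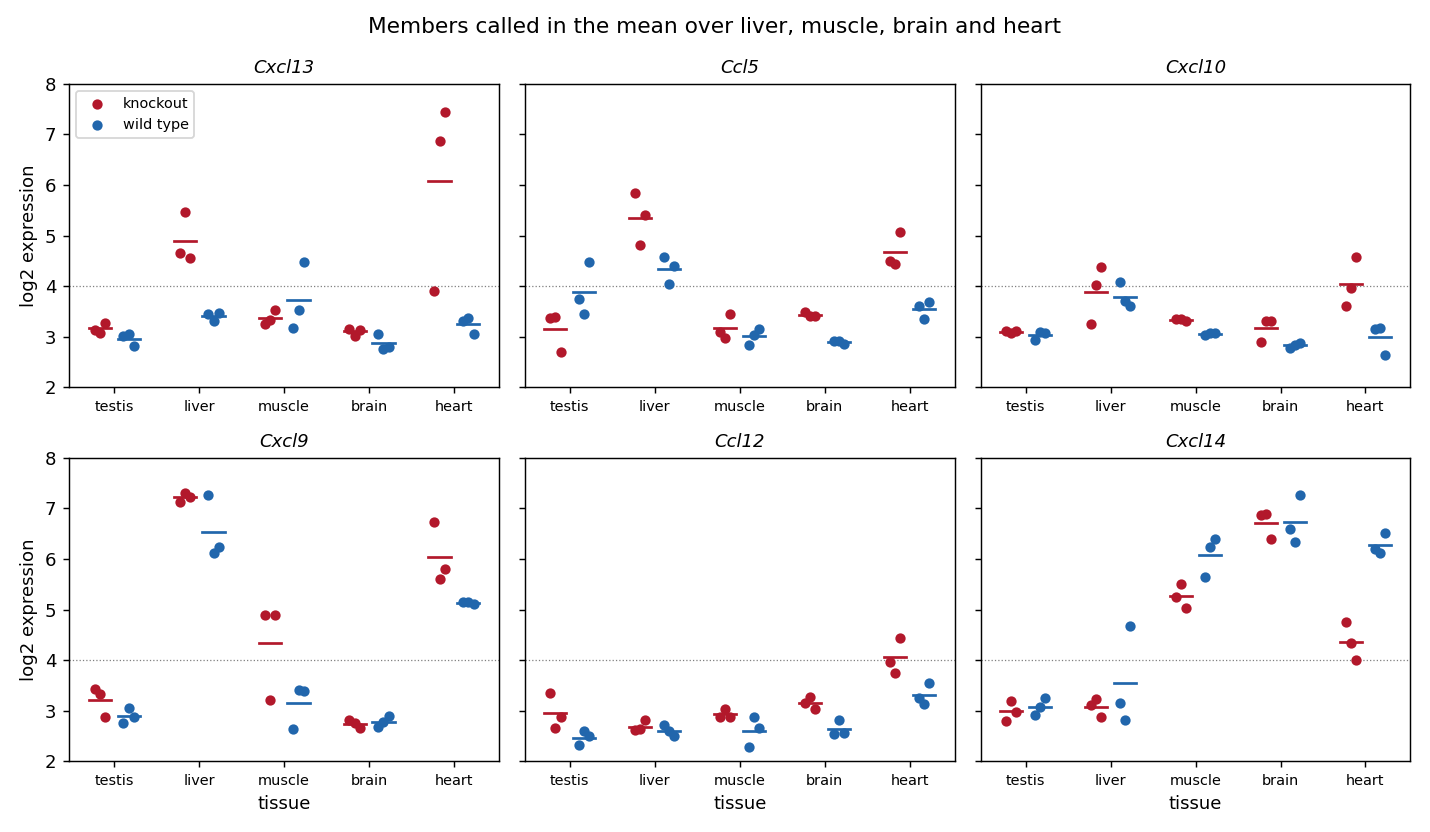
Log2 expression in 5 tissues of the 6 chemokine ligand genes called in the mean over liver, muscle, brain and heart, with 3 knockout arrays (red) left of 3 wild-type arrays (blue), short bars at the means and a dotted line at 4. Ccl5 rose in liver and heart, Cxcl13, Cxcl10 and Ccl12 rose in heart and Cxcl14 fell in heart, while the higher knockout points of Cxcl13 in liver and of Cxcl9 in heart and muscle did not pass the test in those tissues.

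The knockout effect differed between the 5 tissues for 10 members by limma's F test, where 52.3% of all genes differed. Among the 4 tissues other than testis, Cxcl13 alone did (adjusted p = 0.0439 by limma's F test), where 1.66% of all genes did. Over all arrays the Cxcl13 change was 2.82 in heart, 1.48 in liver, -0.35 in muscle and 0.24 in brain. With heart knockout replicates 2 and 3 left out, which leaves 1 knockout heart, the heart change was 0.66, below that of liver.

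In brain, 24 members had a knockout minus wild-type difference above 0 and 10 one below 0, and those whose arrays were separate were all higher in knockout. Of the 34 members, 12 had every knockout brain above every wild-type brain, 35.3% against 9.18% of all genes, and none had the opposite order, where 6.62% of all genes did. The 12 were Ccl11, Ccl12, Ccl22, Ccl25, Ccl3, Ccl4, Ccl5, Ccl6, Ccl7, Ccl9, Cxcl10 and Cxcl5. In all 12 both group means lay under 4. Among genes with both means under 4 in brain, the same order was found for 12 of 30 members and for 11.7% of 7840 genes. Among genes with both means under 4 in the other tissues, it was found for 2 of 24 members in liver (6.8% of all such genes), 2 of 24 in muscle (10.8%) and 1 of 17 in heart (8.11%).

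The largest of these brain differences were 0.64 for Ccl9, at 3.39 in knockout and 2.74 in wild type, and 0.54 for Ccl5. The second probe set of Ccl9 gave 0.05 in brain, and that of Ccl25 gave -0.08 where the first gave 0.08. None of the 12 passed the limma test in brain after adjustment, and 5 of them, Ccl12, Ccl4, Ccl5, Ccl7 and Cxcl5, had an unadjusted p below 0.05. Without brain wild-type replicate 3, 16 members were separate and higher in knockout brain, against 15.4% of all genes, and 1 was separate and lower, against 13.2%. In heart 8 members were separate and higher in knockout, against 7.73% of all genes, in liver 5, against 7.9%, in muscle 2, against 9.36%, and in testis 8, against 35.3%. Separate and lower in knockout were 2 members in heart, Ccl11 and Cxcl14, against 11.6% of all genes, 2 in muscle, Cxcl14 and Cxcl16, against 10%, and 6 in testis, against 28.2%, while liver had none, against 8.8%. Separation with knockout higher in at least 2 of the 4 tissues other than testis was found for 7 members, Ccl12, Ccl22, Ccl5, Ccl7, Ccl9, Cxcl10 and Cxcl13, 20.6% against 4.78% of all genes.

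The receptors for these ligands were measured for 15 of 19 listed genes and were mostly near background. In liver and muscle all 15 lay under 4 on every array, and in brain and heart 14 did. Ccr1, the receptor of Ccl5, Ccl6 and Ccl9, rose in heart by 0.46 ± 0.11 at means of 3.08 in knockout and 2.62 in wild type (adjusted p = 0.027 by limma). In testis Cx3cr1 rose by 1.53 ± 0.25, and 4 of the 15 receptors fell, where 23.4% of all genes fell, of which Ccr6 fell by 2.54 ± 0.16 and Ccr4 by 0.84 ± 0.12. The scavenger of Cxcl12, Ackr3, fell by 0.71 ± 0.18 in heart (adjusted p = 0.0307 by limma) and rose by 1.24 ± 0.18 in testis.

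Of 18 interferon-stimulated genes measured outside the chemokines, 9 rose and Mx1 fell in testis, where 32.8% of all genes rose and 23.4% fell. In liver 10 rose, against 0.912% of all genes, in muscle 12, against 0.778%, in brain 8, against 0.234%, and in heart 13, against 1.11%. Their median change was 0.48 in testis, 0.83 in liver, 0.89 in muscle, 0.66 in brain and 1.31 in heart, beside medians over the 34 chemokine ligands of -0.05 in testis and 0.07 to 0.09 in the other tissues. In heart Usp18 rose by 4.06 ± 0.19 and Ifit1 by 3.86 ± 0.19, and Irf7 by 2.62 ± 0.20. Of 19 inflammatory cytokine and NF-kB genes measured, 7 rose and Sele fell in testis, where 32.8% and 23.4% of all genes did, and Relb fell by 0.82 ± 0.20 in muscle. Of the macrophage list, Fcgr1 alone rose in heart, by 0.59 ± 0.13, with list means of 6.14 to 6.76 in knockout and 5.71 to 6.05 in wild type.

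Chemokine genes lie in clusters, and 20 of the 34 fall into 5 runs of neighbours in the GRCm38.p6 gene order with at most 1 other protein-coding gene between them. Within the runs given here, the changes of neighbours differed in size and, in some runs, in sign. In the run Cxcl9, Cxcl10 and Cxcl11, the heart changes were 0.92, 1.06 and 0.09. In the run Ccl5, Ccl9, Ccl6, Ccl3 and Ccl4 they were 1.12, 0.64, 0.72, 0.17 and -0.09, where Ccl9 had 0.21 and Ccl6 -0.10 with heart knockout replicate 1 alone. In testis the run Ccl2, Ccl7, Ccl11, Ccl12, Ccl8 and Ccl1 had changes of 0.05, 0.05, -0.06, 0.49, 2.13 and -0.55, with Ccl8 up beside Ccl1 down. Ccl22, Cx3cl1 and Ccl17 had -0.41, 0.66 and -0.73 there, of which the outer 2 were called. The second probe set of Cx3cl1 gave 0.08 in testis.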

How the data were processed

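RNA of 5 tissues was hybridised to 30 one-colour Affymetrix mouse arrays, 1 sample per array. The values used are log2 expression per probe set as the authors deposited them, made with RMA in R 2.14.0 per the submitters' processing notes. Whether all arrays went through RMA together is not given in the sources used here. RMA equalises the distributions of arrays, so a change shared by most genes would not be seen.

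Of 45141 probe sets, 28898 carried 1 gene symbol, and the brightest per gene gave 17097 genes. The model, limma 3.58.1 under R 4.3.3, took 10 group means over all 30 arrays, leaving 20 residual degrees of freedom, with tests two-sided and adjusted within each contrast at 0.05. No pair of arrays was identical. The fit was tested on simulated data. Replicate numbers did not pair the samples: correlations of same-numbered arrays within a tissue ran from -0.127 to 0.243.

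A member was described array by array where called, or in its tissue of highest wild-type mean where that reached 6. In testis, with over 10 called, this held for those reaching 5. Others described (among them Cxcl9, Ccl19, Ccl8 and Cxcl16 in heart, Cxcl9 and Ccl11 in muscle and Cxcl13 in liver) were chosen after their values were seen. Members and the 25 gene lists, with 222 of 251 genes measured, were chosen with earlier results of these data known. Alternatives were other probe set rules, filters, normalizations, fits per tissue, a replicate block and arrays left out, 41 settings in all; leaving out arrays that stand apart was added after seeing the data. Promoter windows and gene order came from RefSeq tables on GRCm38.p6, used for names and sequence.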

Additional observations from a re-analysis of the deposited data

Results flagged for a closer look

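For 10 chemokine ligand genes the knockout effect differed between the 5 tissues, by limma's F test on the differences between tissue effects. The adjusted p was 1.4e-04 for Cxcl12, 3.24e-04 for Ccl5 and 7.54e-04 for Ccl17. It was 0.0026 for Cxcl13, 0.00413 for Cxcl16, 0.0054 for Cxcl14 and 0.00661 for Ccl22. It was 0.0206 for Ccl8, 0.0276 for Xcl1 and 0.0448 for Cxcl10. Of all genes, 52.3% passed the same test.

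Cxcl12, Ccl5, Ccl17, Cxcl13, Cxcl16 and Ccl22 passed in every setting in which they were refitted. Cxcl14 passed in 39 of 40, Ccl8 in 37 of 40, Xcl1 in 31 of 39 and Cxcl10 in 13 of 39. Over the 4 tissues without testis, Cxcl13 was the 1 of these 10 with an adjusted p below 0.05, at 0.0439, and the others ranged from 0.0931 for Cxcl14 to 0.936 for Cxcl12.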

How the results depend on the processing

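Counts of members called, higher then lower, moved in several settings, of which only some are given here. Fitting each tissue alone gave 4 lower in testis, 0 higher in liver and 0 higher in heart. In testis that fit also ended the higher call of Ccl12 and gave higher calls to Ccl21b and Cx3cl1. The mean of all probe sets gave Ccl25 a lower call in testis. Keeping genes above the median level, which leaves fewer members, gave 2 higher and 1 lower in testis, 0 higher in liver and in heart, 2 higher in the mean of 5 tissues, 1 higher in the mean of 4, 3 with effects that differ between tissues and 8 that differ between wild-type tissues. The replicate block gave 3 higher in the mean of 4 tissues, without Cxcl9 (adjusted p = 0.0519) and Cxcl10 (adjusted p = 0.0816), and ended the heart call of Cxcl10 (adjusted p = 0.0528) and the testis call of Ccl28 (adjusted p = 0.0605), while Ccl21b gained one in testis (adjusted p = 0.0484), all by limma. Leaving out the 2 hearts with atrial transcripts gave 2 higher in liver, 0 higher and 0 lower in heart and 1 lower in the mean of 5 tissues. Leaving out 5 of the arrays that stand apart (these hearts, testis wild-type replicate 3, muscle wild-type replicate 1 and brain wild-type replicate 3, with liver wild-type replicate 3 kept) gave the same 4 counts and 3 higher in the mean of 4 tissues. Over the 4 tissues other than testis, 1 member had effects that differ.

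Leaving out 1 array at a time gave these ranges. Higher calls ran from 3 to 5 in testis, 0 to 2 in liver, 0 to 1 in muscle, 0 to 0 in brain, 1 to 5 in heart, 7 to 9 in the mean of 5 and 5 to 6 in the mean of 4. Lower calls ran from 5 to 7 in testis, 0 to 1 in liver, 0 to 0 in muscle, 0 to 0 in brain, 1 to 1 in heart, 1 to 4 in the mean of 5 and 1 to 1 in the mean of 4. Effects that differ between tissues ran from 7 to 12 members, and wild-type levels that differ from 24 to 27.

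Of single-member values under the settings, 9372 kept direction and side of the threshold, 80 lost a call and 42 gained one, and no called value changed sign. Quantile normalization and median centring moved the median of all genes to between -0.0351 and 0.0289. With 3 arrays per group, the number of arrays limits the precision, and most ligands lie near background. The causes of these moves were not tested.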
